A study of Mus musculus with 12 samples.

Results

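The 10 genes described here are used as markers of astrocytes, the star-shaped glia of the brain and spinal cord, or of their reactive state. Gfap, Vim, Slc1a2, Slc1a3, Aqp4, Gja1, Aldh1l1 and S100b are common astrocyte markers, and Gfap, Vim, Serpina3n and Lcn2 are used to read the reactive state that follows injury or inflammation. They were taken by gene name, and make up 10 of the 38924 genes in the deposited tables. All 10 were detected in every library and passed the filter on low counts. RNA came from the whole spinal cord of 12 mice aged 1 week, all on a B6J;CAST background, with 1 library for each mouse. The 4 groups of 3 mice were female wt, female GarsP278KY, male wt and male GarsP278KY. Gars encodes glycyl-tRNA synthetase, which joins glycine to its tRNA, and dominant Gars mutations damage peripheral axons. Mice with the P278KY allele are called P278KY below, and each library carries the mouse number of its label.

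Library totals ran from 27713981 to 43219891 expected counts, the estimated numbers of fragments per gene. The sex marks of 2 wt libraries went against their labels. The library labelled female wt 14 held Xist, the RNA of the inactive X chromosome, at 0.12 TPM and the Y-linked gene Ddx3y at 18.1 TPM (a level scaled to transcript length and library total). The library labelled male wt 19 held them at 127 and 0.01 TPM. Results by genotype and by labelled sex are therefore also given without both libraries. The library labelled female wt 14 also stood apart in its summed level of 9 sensory ganglion genes, 593 TPM against 178 to 247 TPM in the other 11 libraries.

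Astrocytes clear glutamate and potassium from around synapses, hold water channels in the endfeet that face blood vessels, and are joined to each other by gap junctions. In response to injury they can become reactive: the cell enlarges, intermediate filament genes such as Gfap and Vim are induced, and secreted proteins such as Serpina3n and Lcn2 may appear. Reactive astrocytes surround dying motor neurons in several motor neuron diseases, whereas P278KY primarily affects peripheral motor and sensory axons.

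Gfap was the most abundant of the 10 genes in every library, at a median of 917 TPM over the 12 libraries. Aqp4, the water channel of astrocyte endfeet, followed at 509 TPM, again below Gfap and above the next gene in 12 of 12 libraries. The middle of the order was held by genes whose ranges overlapped: Slc1a2 at a median of 295 TPM, Gja1 at 254 TPM, S100b at 240.0 TPM, Vim at 210.0 TPM and Slc1a3 at 150 TPM. Slc1a2 lay above Gja1 in 12 of 12 libraries, but S100b lay above Vim in only 6 of 12, so these neighbours could not be ordered. Aldh1l1 stood lower, at 69.1 TPM, below Slc1a3 in all 12 libraries with no overlap of the ranges. The secreted reactive genes closed the order, Serpina3n at 22.95 TPM and Lcn2 at 12.6 TPM, with Serpina3n above Lcn2 in 12 of 12 libraries. Among all genes of a library, Gfap ranked between 49 and 119 by TPM, and Lcn2 between 5890 and 13191.

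**Figure D1:**
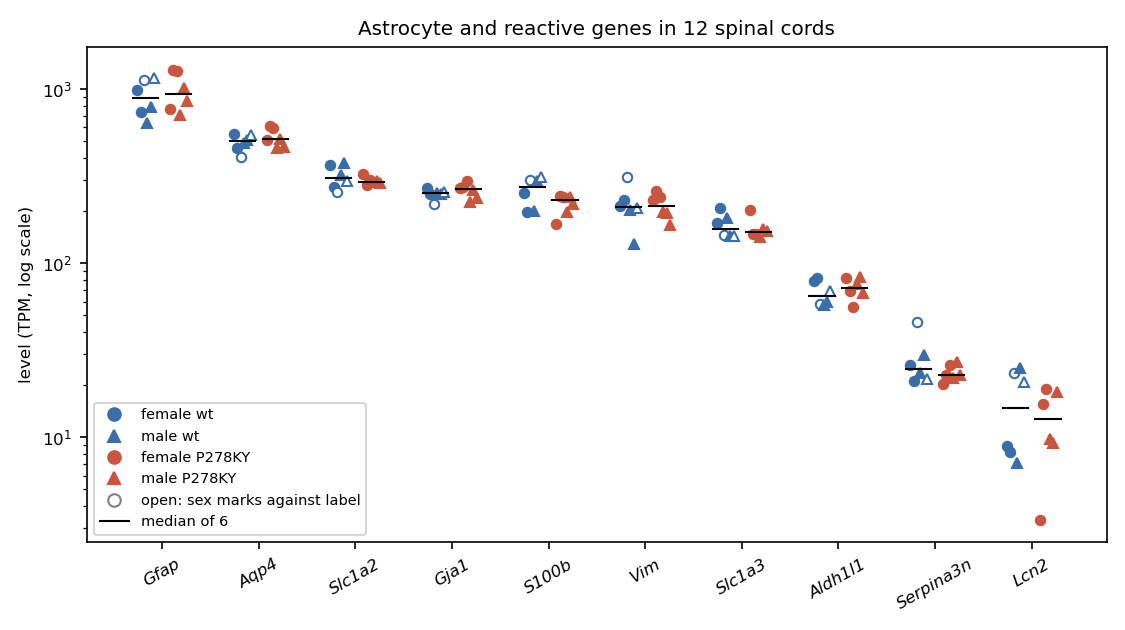
Levels of the 10 genes in TPM on a log axis, with 1 point per library and a line at the median of each genotype's 6 libraries. The wt and P278KY points of every gene overlap, and Lcn2 is spread most widely, from 3.36 to 24.8 TPM.

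How much a gene varied between cords differed greatly among the 10. Lcn2 had a coefficient of variation of 51.8% over the 12 libraries on the CPM scale, which relates counts to the scaled library total, more than 93.4% of the 17995 genes tested. Serpina3n followed at 25.5%, Gfap at 24.0% and S100b at 20.3%. For Serpina3n the library labelled female wt 14 stood at 47.9 CPM, and the other libraries at 21.9 to 33.6 CPM. Gja1 varied least, at 9.11%, under the median of 11.4% over all genes tested. The genes of the reactive state were thus not uniformly variable: Vim stood at 18.8%, beside Aldh1l1 at 17.4%.

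The extreme values were not shared evenly among the mice. Of the 20 highest and lowest TPM values of the 10 genes, the library labelled female wt 14 held 5, the highest Vim and Serpina3n and the lowest Slc1a2, Aqp4 and Gja1. Female P278KY 4 held the lowest S100b, Serpina3n and Lcn2. Male wt 9 held the highest Slc1a2 and Lcn2 and the lowest Vim. Female wt 1 and male P278KY 13 held none.

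**Figure D2:**
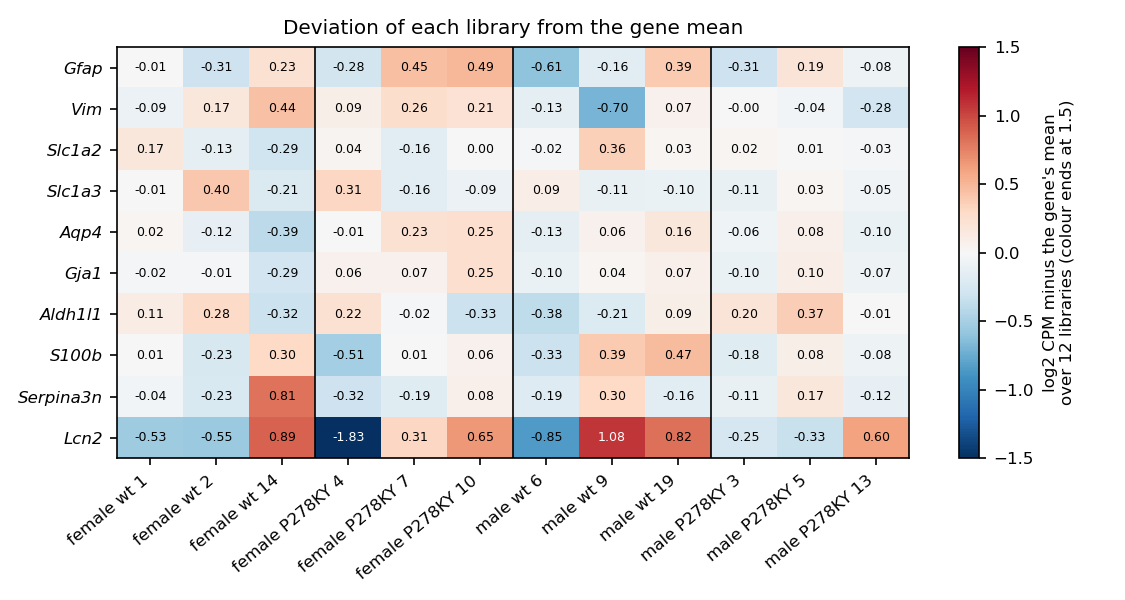
Deviation of each library from the gene's mean over the 12 libraries, in log2 CPM, with 1 column per library and vertical lines between the 4 groups. Columns within a group differ from each other as much as groups do: Lcn2 runs from -1.83 in female P278KY 4 to 0.65 in female P278KY 10.

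The comparison of P278KY with wt cords at 1 week asked whether these genes differ with the mutation. None of the 10 passed the test. The log2 fold changes lay between -0.28 (Lcn2) and 0.14 (Gfap), 5 above and 5 below 0, and edgeR's adjusted p was 0.9999 for each. No gene of the 10 reached an unadjusted p under 0.05 either, where 4.09% of all 17995 genes tested did, and 0.00556% of them (1 gene) passed after adjustment. The median log2 fold change of the 10 genes was 0.014, against -0.0064 over all genes tested, of which 46.9% were fitted higher in P278KY. The levels of the 6 P278KY and 6 wt libraries overlapped for each of the 10 genes in TPM and in CPM, and 0.222% of all genes tested had groups that did not overlap in CPM. DESeq2, limma-voom and limma on log2(TPM + 1) also called 0 of the 10, where DESeq2 called 33 genes in all. Without both libraries whose sex marks went against their labels, 0 of the 10 passed and 0 of 18168 genes did. In whole cord, fewer astrocytes and less RNA per astrocyte cannot be told apart, nor could opposite changes in different astrocytes be seen.

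**Figure D3:**
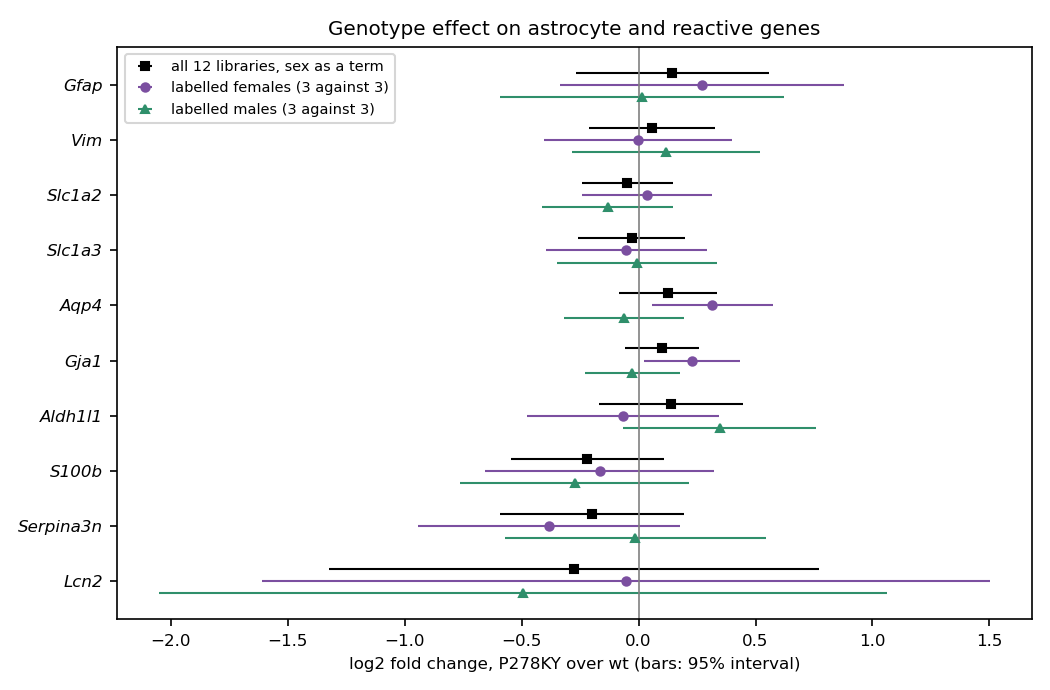
Fitted log2 fold changes of P278KY over wt with 95% intervals, for all 12 libraries with sex as a term and within each labelled sex. Every interval over all 12 libraries includes 0, and Lcn2 has the widest, from -1.32 to 0.77.

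Gfap and Vim encode the intermediate filaments of astrocytes, Gfap being the main filament of mature astrocytes and Vim also a protein of immature glia, vessel walls and connective tissue. Gfap stood at 980.4, 734 and 1126 TPM in the libraries labelled female wt 1, 2 and 14, and at 639, 792 and 1157 TPM in male wt 6, 9 and 19. It stood at 767, 1291 and 1274 TPM in female P278KY 4, 7 and 10, and at 704, 1014 and 853 TPM in male P278KY 3, 5 and 13. Each of the 4 groups thus held both low and high cords, and the groups overlapped. The mean was 905 ± 215 TPM in wt and 984 ± 254 TPM in P278KY (SD, n = 6 each), and the log2 fold change was 0.14 ± 0.19 (SE). As a fold this is 1.11, with a 95% interval of 0.831 to 1.47.

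Both libraries whose sex marks went against their labels were among the highest wt values of Gfap. Without them the 4 remaining wt libraries had a mean of 786 ± 144 TPM (SD, n = 4), and the fitted log2 fold change was 0.36 ± 0.17 (SE, edgeR unadjusted p = 0.0573, adjusted p = 0.887), still not past the threshold. Leaving out 1 library at a time, it ran from 0.063 without male wt 6 to 0.29 without the library labelled male wt 19. Per GENCODE M21 on GRCm38, Gfap (ENSMUSG00000020932, chromosome 11, 102887336 to 102900912, minus strand) overlaps a noncoding gene on the opposite strand. Reads of that gene could be shared with Gfap if strand was not used in the counting. Aqp4, Slc1a2 and S100b also overlap a gene on the opposite strand, Slc1a3 one on the same strand, and Aldh1l1 genes on both strands.

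Vim ranged from 128 TPM, by way of a median of 210.0 TPM, to 314 TPM in the 6 wt libraries, and from 165 by way of 213 to 258 TPM in the 6 P278KY libraries. The wt libraries enclosed the whole P278KY range. In the fit, P278KY over wt had a log2 fold change of 0.06 ± 0.12 (SE), or 1.04-fold with a 95% interval of 0.864 to 1.25. Without both discordant libraries it was 0.21 ± 0.11 (SE, edgeR unadjusted p = 0.0773, adjusted p = 0.931).

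The glutamate transporters Slc1a2 (GLT-1) and Slc1a3 (GLAST) remove transmitter from synapses, and Slc1a2 becomes the main one as the cord matures. Slc1a2 ran from 256 by way of a median of 308 to 374 TPM in wt, and from 282 by way of 293 to 324 TPM in P278KY. The P278KY libraries lay inside the wt range, with an SD of 14.5 TPM against 49.1 TPM in wt (n = 6 each). That difference in spread was not tested. Its fitted log2 fold change was -0.05 ± 0.09 (SE; fold 0.967, 95% interval 0.846 to 1.11). Slc1a3 ran from 142 by way of 157 to 208 TPM in wt and from 141 by way of 150 to 202 TPM in P278KY, with 1 high library in each genotype, female wt 2 and female P278KY 4. Its log2 fold change was -0.03 ± 0.11 (SE; fold 0.98, 95% interval 0.836 to 1.15). The log2 fold changes without both discordant libraries were -0.12 ± 0.09 for Slc1a2 and -0.11 ± 0.11 for Slc1a3 (SE).

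Aqp4 forms the water channels of the endfeet, and Gja1 encodes connexin 43, the main gap junction protein of astrocytes. Aqp4 stood at 551, 459 and 405 TPM in the libraries labelled female wt 1, 2 and 14 and at 491, 509 and 545 TPM in male wt 6, 9 and 19. It stood at 510.0, 613 and 593 TPM in female P278KY 4, 7 and 10 and at 460.2, 515 and 464 TPM in male P278KY 3, 5 and 13. The highest values came from 2 P278KY females and the lowest from the library labelled female wt 14, while the other libraries overlapped. Fitted over the 12 libraries, the log2 fold change was 0.13 ± 0.10 (SE; fold 1.09, 95% interval 0.945 to 1.26), and 0.06 ± 0.08 without the library labelled female wt 14. It was 0.11 ± 0.08 (SE) without both discordant libraries.

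Gja1 stood at 269, 248 and 218 TPM in the libraries labelled female wt 1, 2 and 14 and at 251, 250.3 and 257 TPM in male wt 6, 9 and 19. It stood at 268, 275 and 297 TPM in female P278KY 4, 7 and 10 and at 224, 263 and 237 TPM in male P278KY 3, 5 and 13. As for Aqp4, the library labelled female wt 14 was lowest, and P278KY females held the highest values. P278KY over wt gave a log2 fold change of 0.10 ± 0.07 (SE; fold 1.07, 95% interval 0.961 to 1.198), and 0.05 ± 0.06 without the library labelled female wt 14. It was 0.08 ± 0.06 (SE) without both discordant libraries.

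Aldh1l1, an enzyme of folate metabolism used as a marker of the whole astrocyte population, ran from 57.6 by way of a median of 64.4 to 81.4 TPM in wt and from 55.9 by way of 72.1 to 83.3 TPM in P278KY. The ranges nearly coincided. In the fit, P278KY over wt had a log2 fold change of 0.14 ± 0.14 (SE; fold 1.10, 95% interval 0.891 to 1.36). The log2 fold change was 0.12 ± 0.16 (SE) without both discordant libraries. Aldh1l1 is the member on the chromosome of Gars, chromosome 6, about 35.4 Mb away on GRCm38. S100b, a calcium-binding protein of astrocytes that oligodendrocyte lineage cells also make, ran from 196 by way of 273 to 312 TPM in wt and from 166 by way of 229 to 243 TPM in P278KY. In all, 4 wt libraries lay above the whole P278KY range in TPM, the other 2 within it. Its fitted log2 fold change was -0.22 ± 0.15 (SE, edgeR unadjusted p = 0.168, adjusted p = 0.9999; fold 0.859, 95% interval 0.685 to 1.08), and -0.07 ± 0.15 without both discordant libraries, which were the highest and the second highest for it. S100b overlaps Dip2a on the opposite strand.

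Serpina3n encodes a secreted protease inhibitor and Lcn2 a secreted lipocalin that binds iron-carrying siderophores. Both are strongly induced in reactive astrocytes, and Lcn2 is also abundant in neutrophils and their marrow precursors. STAT3, AP-1 and NF-kappaB are known regulators of reactive genes. The bases just upstream of the RefSeq start sites (GRCm38.p6) are therefore shown for Gfap, Serpina3n and Lcn2, which are used to read the reactive state. Only 250 bases per gene were searched, and sites farther away were not. Capitals mark each match, on either strand, to the letters TTCNNNGAA (STAT), TGANTCA (AP-1) or GGGNNNNTCC (kB-like). The Lcn2 stretch stops short of an annotated UTR.
Gfap, chr11:102897201-102897450, minus strand: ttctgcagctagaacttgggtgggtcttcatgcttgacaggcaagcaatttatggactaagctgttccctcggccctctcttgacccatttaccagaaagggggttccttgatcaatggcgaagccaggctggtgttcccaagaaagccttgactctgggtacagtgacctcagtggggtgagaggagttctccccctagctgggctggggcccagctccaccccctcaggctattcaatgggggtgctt
Serpina3n, chr12:104406458-104406707, plus strand: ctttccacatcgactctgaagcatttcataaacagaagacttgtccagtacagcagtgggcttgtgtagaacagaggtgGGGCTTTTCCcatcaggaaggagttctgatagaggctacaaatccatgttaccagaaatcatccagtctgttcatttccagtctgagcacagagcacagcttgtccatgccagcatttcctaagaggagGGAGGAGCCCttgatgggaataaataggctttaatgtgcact
Lcn2, chr2:32387798-32387989, minus strand: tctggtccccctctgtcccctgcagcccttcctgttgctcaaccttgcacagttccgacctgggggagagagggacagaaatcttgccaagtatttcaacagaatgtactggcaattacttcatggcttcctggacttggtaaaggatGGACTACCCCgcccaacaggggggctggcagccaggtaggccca

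Serpina3n held 2 kB-like matches in its 250 bases, Lcn2 held 1 and Gfap held no match to any of the 3 patterns. Of all 32851 RefSeq promoters, 16.5% hold a kB-like match in the same 250 bases, 7.02% a STAT match and 6.75% an AP-1 match. Among the 9 members with a promoter in RefSeq, Vim held 2 kB-like matches, Slc1a3 held 1 STAT match and Gja1 held 1 AP-1 match, and the other windows held none. A match is a run of letters and not a measured binding site.

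Serpina3n stood at 26.0, 21.0 and 45.8 TPM in the libraries labelled female wt 1, 2 and 14 and at 23.3, 29.5 and 21.5 TPM in male wt 6, 9 and 19. It stood at 20.3, 22.7 and 26.1 TPM in female P278KY 4, 7 and 10 and at 22.0, 27.2 and 22.6 TPM in male P278KY 3, 5 and 13. The other 11 libraries thus shared a narrow range, and the library labelled female wt 14 lay far above it. Fitted over the 12 libraries, the log2 fold change was -0.20 ± 0.18 (SE; fold 0.871, 95% interval 0.664 to 1.14), and -0.0047 ± 0.11 without the library labelled female wt 14. It was -0.04 ± 0.11 (SE) without both discordant libraries. Of the 10 other Serpina3 genes of the cluster, whose near-identical sequences can exchange reads with Serpina3n, 2 passed the filter. Serpina3g was also highest in the library labelled female wt 14, at 10.7 TPM against 3.64 TPM in the next library.

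Lcn2 stood at 8.92, 8.19 and 23.4 TPM in the libraries labelled female wt 1, 2 and 14 and at 7.13, 24.8 and 20.7 TPM in male wt 6, 9 and 19. It stood at 3.36, 15.6 and 18.9 TPM in female P278KY 4, 7 and 10 and at 9.69, 9.22 and 18.1 TPM in male P278KY 3, 5 and 13. High and low cords occurred in both genotypes, and the 2 ranges overlapped except for 3 wt libraries above and 1 P278KY library below. P278KY over wt gave a log2 fold change of -0.28 ± 0.47 (SE; fold 0.826, 95% interval 0.399 to 1.71). The sign turned without both discordant libraries, at 0.11 ± 0.54, whereas without female P278KY 10 the value was -0.50, and the interval does not bound a change in either direction closely. Lcn2 rested on 39 to 383 expected counts per library.

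Within the labelled sexes, the genes of the endfeet and gap junctions had the smallest p in females, and neither passed. The log2 fold change of Aqp4 in labelled females was 0.32 ± 0.12 (SE, edgeR unadjusted p = 0.0209, adjusted p = 0.381), from means of 472 ± 73.8 TPM in wt and 572 ± 54.4 TPM in P278KY (SD, n = 3 each). That of Gja1 was 0.23 ± 0.09 (SE, edgeR unadjusted p = 0.0309, adjusted p = 0.419). An unadjusted p under 0.05 was reached by 10.7% of all genes in this comparison and an adjusted one by 0.0%, so 2 of 10 members is near the background. On the CPM scale the 3 P278KY females lay above the 3 labelled wt females for Gja1, as 15.3% of all genes had groups that did not overlap there, but in TPM they overlapped. Without the library labelled female wt 14 the log2 fold changes were 0.21 ± 0.11 for Aqp4 (SE, edgeR unadjusted p = 0.0786) and 0.15 ± 0.09 for Gja1 (SE, edgeR unadjusted p = 0.118).

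In labelled males the smallest p was that of Aldh1l1, with a log2 fold change of 0.35 ± 0.19 (SE, edgeR unadjusted p = 0.0901, adjusted p = 0.942). None of the 10 reached an unadjusted p under 0.05 in males, where 4.91% of all genes did, and 0.0% passed after adjustment. Without both discordant libraries Aldh1l1 stood at 0.48 ± 0.17 (SE, edgeR unadjusted p = 0.0174, adjusted p = 0.472). In that fit 1 of the 10 and 1584 of 18168 genes had an edgeR unadjusted p under 0.05 in males. After adjustment 0 of the 10 and 4 genes in all passed. The female effect minus the male effect was 0.38 ± 0.17 for Aqp4 (SE, edgeR unadjusted p = 0.0435, adjusted p = 0.443) and 0.26 ± 0.13 for Gja1 (SE, edgeR unadjusted p = 0.0767, adjusted p = 0.511). In that test of the difference between the sexes 10.9% of all genes had an unadjusted p under 0.05 and 0.0% passed, so no difference between sexes was called for any of the 10. Without both discordant libraries the difference was 0.21 ± 0.15 for Aqp4 (SE, edgeR unadjusted p = 0.186) and 0.14 ± 0.12 for Gja1 (SE, edgeR unadjusted p = 0.276). The smallest p of the 10 then belonged to Aldh1l1, at -0.70 ± 0.23 (SE, edgeR unadjusted p = 0.0146, adjusted p = 0.288). Over all 12 libraries Aldh1l1 stood at -0.41 ± 0.26 (SE, edgeR unadjusted p = 0.144, adjusted p = 0.603). For the difference without both discordant libraries, 1 of the 10 and 2316 of 18168 genes had an edgeR unadjusted p under 0.05. DESeq2 called 0 of the 10 within females, within males and for the difference, where it called 1.64%, 0.189% and 1.55% of all genes. Both limma fits called 0 of the 10 and 0.0% of all genes in each of these comparisons.

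Between the labelled sexes, Vim had the smallest p of the 10. In labelled females it ran from 212 TPM in female wt 1 to 314 TPM in the discordant library numbered 14, and in labelled males from 128 TPM in male wt 9 to 208 TPM in the library labelled male wt 19. The labelled sexes did not overlap in TPM, as for 0.317% of all genes tested, but overlapped in CPM. The highest of the labelled females carried male sex marks, and the highest of the labelled males carried female ones. The log2 fold change of males over females was -0.35 ± 0.12 (SE, edgeR unadjusted p = 0.0145, adjusted p = 0.925), and -0.35 ± 0.11 without both discordant libraries (SE, edgeR unadjusted p = 0.00822, adjusted p = 0.866). An unadjusted p under 0.05 was reached by 4.6% of all genes and by 1 of the 10, and 0.0% passed after adjustment.

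How the 10 genes varied together was read from log2 CPM over the 12 libraries, in 45 pairs of members and in 60 pairs of a member with the mean of 1 of 6 lists of other cells. These values share library and depth, and p comes from a two-sided permutation test with 100000 resamples, adjusted by Benjamini-Hochberg over the 105 relations. On the r scale 6 relations passed with Pearson's r, 4 between members and 2 with lists. With Spearman's rho, permutation p adjusted likewise was 0.00525 for Lcn2 with the neutrophil list, 0.0205 for Aqp4 with Gja1 and 0.0465 for S100b with Lcn2. The other relations did not pass with rho. Their adjusted permutation p was 0.0875 for S100b with the neutrophil list, 0.0875 for Slc1a3 with Lcn2 and 0.278 for Vim with Slc1a2. The median r over the 45 pairs of members was 0.033, so the 10 genes did not move as 1 block.

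**Figure D4:**
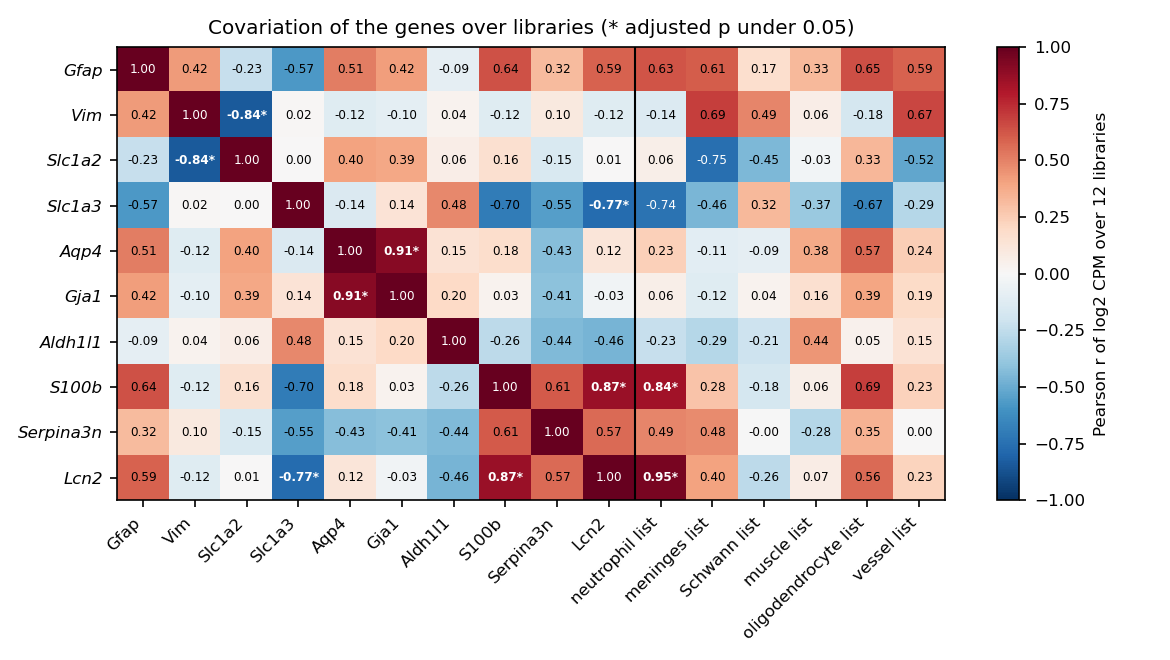
Pearson's r of log2 CPM over the 12 libraries, between the 10 genes and with the mean of 6 lists of other cells to the right of the line. Asterisks mark the 6 relations with an adjusted p under 0.05, among them Lcn2 with the neutrophil list at 0.95 and Aqp4 with Gja1 at 0.91.

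The tightest relation tied Lcn2 to the neutrophil and marrow list of 12 genes, which holds S100a8, S100a9, Ngp, Camp and others of immature neutrophils. Pearson's r was 0.95 (permutation p = 1e-05, the smallest that the resamples can give; adjusted p = 0.00105) and Spearman's rho was 0.93 (permutation p = 5e-05). It was 0.96 within wt and 0.97 within P278KY libraries, and 0.90 without the 2 libraries farthest from the median of Lcn2 (permutation p = 0.00011). The summed level of the list ran from 120.1 by way of a median of 421 to 848 TPM in wt and from 104 by way of 443 to 602 TPM in P278KY. No marker of the list was at 0 in any library, and none of the 12 passed for genotype, with 4 fitted higher and 8 lower. S100a8, a calcium-binding protein of neutrophils, stood at 50.6 TPM in female P278KY 4, the cord with the lowest Lcn2, and at 383 TPM in male wt 9, the cord with the highest. The share of Lcn2 RNA that came from blood or marrow cells was not tested.

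S100b also covaried with Lcn2 (r = 0.87, permutation p = 0.00016, adjusted p = 0.0056; rho = 0.84, permutation p = 0.00133) and with the neutrophil list (r = 0.84, permutation p = 0.0006, adjusted p = 0.0157; rho = 0.77, permutation p = 0.005). Without the 2 libraries farthest from the median of S100b, r was 0.79 with Lcn2 and 0.78 with the list. Without female P278KY 4 alone, the adjusted p became 0.0845 and 0.124. Its largest relation to the other lists was with the oligodendrocyte genes (r = 0.69, permutation p = 0.0133, adjusted p = 0.124; rho = 0.75, permutation p = 0.00723), whose summed TPM was lowest in female P278KY 4 as S100b was. Slc1a3 ran against Lcn2 (r = -0.77, permutation p = 0.0028, adjusted p = 0.049; rho = -0.78, permutation p = 0.00383). This last relation no longer passed when any of 11 libraries was left out, including female P278KY 4 (r = -0.66, adjusted p = 0.156).

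Aqp4 and Gja1 formed the closest pair of members (r = 0.91, permutation p = 5e-05, adjusted p = 0.00262; rho = 0.87, permutation p = 0.00039). The relation held within wt (r = 0.96) and within P278KY libraries (r = 0.83), and r was 0.78 without the 2 libraries farthest from the median of Aqp4 (permutation p = 0.00914). The most opposed pair was Vim and Slc1a2 (r = -0.84, permutation p = 0.00127, adjusted p = 0.0267; rho = -0.57, permutation p = 0.0588). Without the 2 libraries farthest from the median of Vim, r was -0.44 (permutation p = 0.212), so this relation rested on those libraries.

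**Figure D5:**
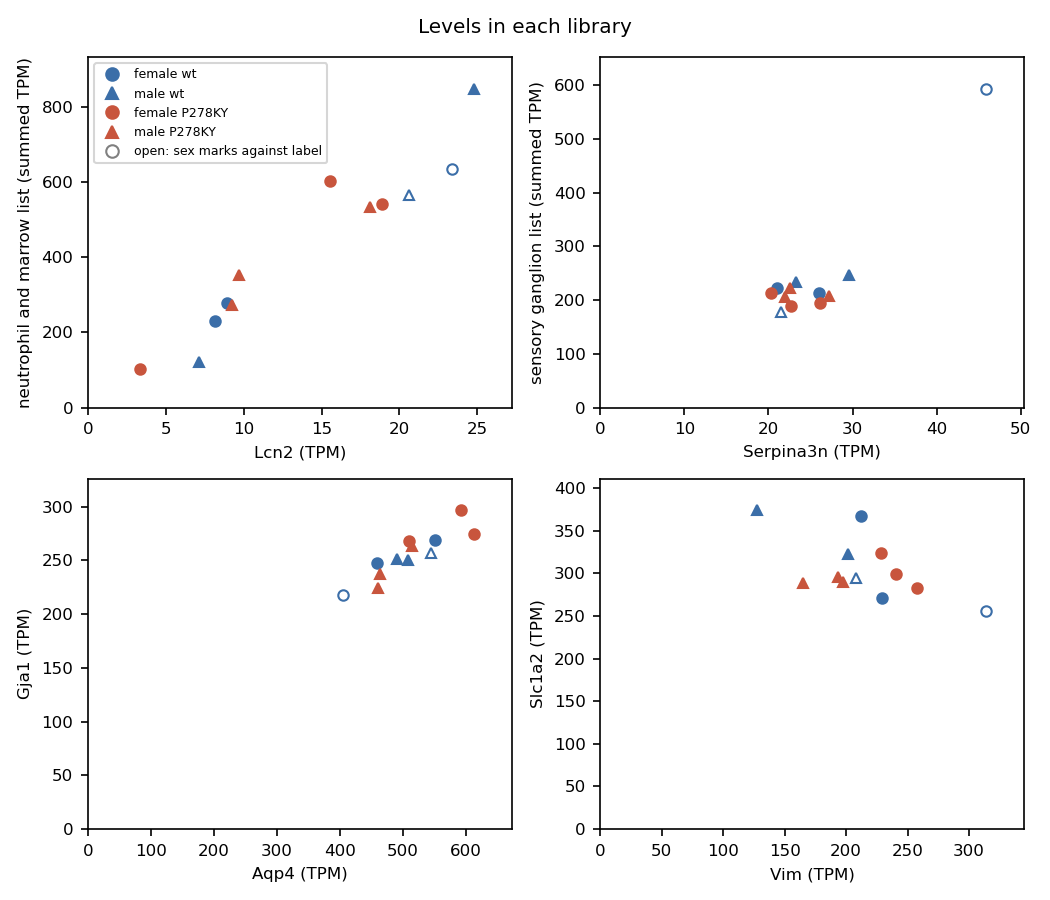
Levels in TPM, with 1 point per library, for Lcn2 with the neutrophil and marrow list, Serpina3n with the sensory ganglion list, Aqp4 with Gja1, and Vim with Slc1a2. Lcn2 follows the neutrophil list in both genotypes, whereas in the Serpina3n panel 1 point, the library labelled female wt 14, lies apart at 45.8 and 593 TPM.

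The remaining lists gave no relation past the threshold, and for each list the member with the largest r in size is given. Vim had it with the endothelial and pericyte genes (r = 0.67, permutation p = 0.0163, adjusted p = 0.131; rho = 0.49, permutation p = 0.111) and with the Schwann cell genes (r = 0.49, permutation p = 0.115, adjusted p = 0.417; rho = 0.37, permutation p = 0.235). Slc1a2 had it with the meningeal and fibroblast genes (r = -0.75, permutation p = 0.00565, adjusted p = 0.0847; rho = -0.59, permutation p = 0.0487). Vim came close there too, in the other direction (r = 0.69, permutation p = 0.0134, adjusted p = 0.124; rho = 0.65, permutation p = 0.0252), a larger r than with the endothelial genes. Aldh1l1 had it with the skeletal muscle genes (r = 0.44, permutation p = 0.15, adjusted p = 0.442; rho = 0.29, permutation p = 0.365). Without the 2 libraries farthest from the median of the member, r was 0.44 for Vim with the endothelial genes, 0.22 with the Schwann cell genes and 0.43 with the meningeal genes, -0.51 for Slc1a2 and 0.24 for Aldh1l1. The summed levels of these lists differed widely between cords: the Schwann cell genes ran from 248 to 2966 TPM, the muscle genes from 12.9 to 3045 TPM and the meningeal genes from 512 to 2159 TPM, the last in the library labelled female wt 14.

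The genes most like each member over the 12 libraries were named as a description, with the 3 highest r of all genes tested. Lcn2 was most like Stfa2 (r = 0.98), BC100530 and Hemgn, the first a stefin of neutrophils. S100b was most like Gamt (r = 0.95), an enzyme of creatine synthesis, Mpv17l2 and Olig2, the transcription factor of the oligodendrocyte lineage. Gfap was most like Abhd4 (r = 0.95), Fmnl3 and Id3, an inhibitor of basic helix-loop-helix factors. Vim was most like Itpripl2 (r = 0.95), Cdh5, the cadherin of endothelium, and Tcf7l1. Slc1a2 was most like Acsl6 (r = 0.91), an acyl-CoA synthetase, Aldh5a1 and Rnase1. Slc1a3 was most like Fam216b (r = 0.95), H2-Q7 and Kif21b. Aldh1l1 was most like Slc25a44 (r = 0.96), Maml2 and Msh3. Aqp4 and Gja1 were most like each other, followed by Xrcc3 and Usp38 for Aqp4 and by Eltd1 and Gpm6b for Gja1. Serpina3n was most like Lcp1 (r = 0.93), a protein of leukocytes, Calca, a neuropeptide gene of sensory neurons (r = 0.92), and Birc3 (r = 0.92). These rested in part on 1 library: without the one labelled female wt 14, they were 0.81, 0.74 and 0.81.

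Further genes of the astrocyte system were not called either. In 35 other astrocyte genes, 18 were fitted higher and 17 lower in P278KY, with a median log2 fold change of 0.00018 and none past the threshold. The smallest p belonged to Kcnj10, the potassium channel of astrocyte membranes, at 150 ± 25.1 TPM in wt and 124 ± 11.4 TPM in P278KY (SD, n = 6 each), with a log2 fold change of -0.23 ± 0.10 (SE, edgeR unadjusted p = 0.0417, adjusted p = 0.9999). Slc7a10, an amino acid transporter of astrocytes, came next, at 125 ± 10.3 TPM and 107 ± 7.13 TPM, with -0.14 ± 0.07 (SE, edgeR adjusted p = 0.9999). Of 12 radial glia genes, which mark the immature precursors of astrocytes, 5 were higher and 7 lower. The 2 with the smallest p, Tnc, an extracellular matrix protein, and Nes, a filament of immature glia, had log2 fold changes of 0.23 ± 0.12 and -0.12 ± 0.09 (SE, edgeR adjusted p = 0.9999 for each).

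Genes of reactive astrocytes beyond the 10 did not pass either. Of 9 others induced in most injuries, 8 were tested, 4 higher and 4 lower, and Hspb1, a small heat shock protein, stood at 14.7 ± 6.77 TPM in wt and 19.6 ± 6.20 TPM in P278KY (SD, n = 6 each; log2 fold change 0.44 ± 0.32, SE). Steap4, a metalloreductase, had a log2 fold change of 0.50 ± 0.42. Of 11 genes of the inflammatory pattern called A1, 5 were higher and 6 lower, and Fkbp5, a glucocorticoid-induced chaperone, had -0.13 ± 0.06 (SE, edgeR unadjusted p = 0.0363, adjusted p = 0.9999) and Amigo2, an adhesion protein, -0.20 ± 0.11. Fkbp5, named for its small p, ran from 14.8 to 17.75 TPM in wt and from 13.1 to 14.7 TPM in P278KY, without overlap. The share of all genes with groups apart in TPM was not counted, and in CPM it was 0.222%. Of 12 genes of the A2 pattern described after ischemia, 10 were tested, 6 higher and 4 lower, and Ptgs2, the inducible cyclooxygenase, had 0.53 ± 0.23 (SE, edgeR unadjusted p = 0.0364, adjusted p = 0.9999) at levels of 0.25 and 0.353 TPM, and Emp1, a membrane protein, 0.37 ± 0.24. In wt, the summed level of all 3 lists was highest in the library labelled female wt 14, at 95.9 TPM for the genes of most injuries against a wt median of 43.2 TPM. The part of that library's other tissue in these levels was not tested. For the genes of most injuries, the library labelled male wt 19 stood at 60.2 TPM. The wt libraries with sex marks as labelled ran from 38.26 to 43.89 TPM. The P278KY libraries ran from 43.9 by way of a median of 56.3 to 67.1 TPM, above those wt libraries. The A1 and A2 sums of the genotypes overlapped also without both discordant libraries. These differences in summed level were not tested.

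The signals that drive reactive genes through gp130 and STAT3 did not pass. Of 7 cytokines of the family, 5 were tested, 1 higher and 4 lower, with log2 fold changes of -0.16 ± 0.15 for Ctf1, cardiotrophin, and 0.33 ± 0.41 for Lif, leukemia inhibitory factor. The mean levels of Lif ran the other way, at 0.247 ± 0.233 TPM in wt and 0.233 ± 0.142 TPM in P278KY (SD, n = 6 each), so no direction can be read for it. Of 11 receptors and signal proteins 3 were higher and 8 lower, with -0.23 ± 0.12 for the receptor Il6ra and 0.04 ± 0.04 for the kinase Jak2. Of the 4 genes for receptors and partners of Lcn2, 1 was higher and 3 lower, and the receptor Slc22a17 stood at 370.3 TPM in wt and 356 TPM in P278KY (log2 fold change -0.02 ± 0.06), the endocytic receptor Lrp2 at -0.22 ± 0.19. The 2 tested genes of the Serpina3 cluster were both fitted lower, Serpina3g at -0.44 ± 0.34 and Serpina3c at -0.02 ± 0.52.

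The partners of the channels and transporters were alike. Of 8 other gap junction genes 3 were higher and 5 lower, with log2 fold changes of -0.06 ± 0.07 for the connexin Gjc1 and 0.22 ± 0.26 for the connexin Gja5. Of 7 other genes of glutamate and glutamine transport 4 were higher and 3 lower, with 0.13 ± 0.06 for Slc1a4, a neutral amino acid transporter (edgeR unadjusted p = 0.0404, adjusted p = 0.9999), and -0.12 ± 0.11 for Slc38a5. Of 8 genes that anchor Aqp4 at endfeet 5 were higher and 3 lower, with 0.06 ± 0.05 for dystrobrevin (Dtna) and -0.27 ± 0.33 for the laminin Lama2.

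Of 6 other intermediate filament genes 1 was fitted higher and 5 lower. That 1 was Des, the filament of muscle, at 3.90 ± 6.19 TPM in wt and 19.6 ± 16.4 TPM in P278KY (SD, n = 6 each; log2 fold change 2.65 ± 0.99, SE, edgeR unadjusted p = 0.0240, adjusted p = 0.9999). Of the muscle list, to which Des is close in function, 10 of 10 genes were fitted higher, 6 with an unadjusted p under 0.05 and 0 past the threshold, where 46.9% of all genes tested were fitted higher and 4.09% had such a p. Among them were Myh3 at 2.43 ± 0.89 and Neb at 2.90 ± 1.10. The summed level of that list ran from 98.5 to 3045 TPM in P278KY and from 12.9 to 94.8 TPM in 5 wt libraries, while the library labelled male wt 19 stood at 1175 TPM. No gene of it was at 0 in any library. Prph, the filament of peripheral and motor neurons, had a log2 fold change of -0.57 ± 0.34 and was highest in the library labelled female wt 14, at 217 TPM against 82.8 TPM in the next.

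Among the lists of other cells, none of whose genes passed for genotype, microglia had 11 of 11 genes fitted higher (median log2 fold change 0.08). Ependyma had 8 of 8 fitted lower (median -0.13), where 46.9% of all genes tested were fitted higher. The summed levels of the genotypes overlapped. Microglia genes ran from 206 to 304 TPM in wt and from 217 to 327 TPM in P278KY. Ependyma genes ran from 27.15 to 62.0 TPM in wt and from 33.7 to 52.7 TPM in P278KY. Trem2 and C1qb of microglia had 0.20 ± 0.18 and 0.13 ± 0.14 (SE, edgeR adjusted p = 0.9999 for each), and Foxj1 and Ccdc153 of ependyma -0.14 ± 0.15 and -0.27 ± 0.32. The sensory ganglion genes were fitted lower in 9 of 9, with a median of -0.57, and Scn10a, a sodium channel of pain neurons, stood at 27.8 TPM in the wt library labelled female 14 and at 0.64 TPM or less in the other 11. The Schwann cell genes were 1 higher and 9 lower, the meningeal genes 7 higher and 3 lower, and the oligodendrocyte genes 9 higher and 1 lower. Oligodendrocyte precursor genes were 2 higher and 5 lower, endothelial and pericyte genes 6 higher and 3 lower, and neuronal genes 6 higher and 4 lower. The median summed level of the oligodendrocyte genes ran the other way, at 19352 TPM in wt and 18241 TPM in P278KY. So did that of the endothelial genes (192 and 183 TPM) and of the neuronal genes (1554 and 1473 TPM). For the other lists of this paragraph it ran as the counts did.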

How the data were processed

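Whole spinal cord RNA of 12 mice was sequenced as poly(A) libraries from KAPA kits, per the labels' protocols. The submitters' processing notes list Bowtie2 2.2.0 and RSEM 1.2.12 without a role. Any build, annotation or strand setting is not given in the sources used here. The deposited tables hold, per the file headers, an expected count per gene, an estimate that divides fragments matching several genes, and a TPM value, which the authors scaled to transcript length and to the total of the library.

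Expected counts were rounded, filtered with filterByExpr over the 4 groups (17995 genes left) and scaled with TMM factors. The test was edgeR 4.0.16 quasi-likelihood (robust) in R 4.3.3 over all genes, adjusted by Benjamini-Hochberg, and 0.05 was the threshold. Genotype and labelled sex were fitted together over the 12 libraries, and effects within sexes came from a fit of 1 mean per group. SE is the log2 fold change over the square root of F. Relations used log2 CPM with a prior count of 2. Alternatives were other scalings, filters, DESeq2 1.42.0, limma 3.58.1 (voom, and log2(TPM + 1)), no sex term, each library left out, and both sex-discordant libraries left out. The procedure was tested on simulated counts, with 50 changed genes at each size of change. For genotype it called 28% of genes changed 1.25-fold, 74% at 1.5-fold, 86% at 2-fold and 96% at 4-fold. It also called 9 unchanged genes. The Benjamini-Hochberg cut-off is less strict when many genes change, as in the simulation, and the genotype fit of the real counts called 1 gene. These rates can therefore overstate what that fit could detect. They are also not rates for any single gene, as the SE for genotype was 0.19 for Gfap and 0.47 for Lcn2.

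The 10 genes and the 24 lists beside them (250 symbols in all, each found in the tables) were chosen with earlier results of these data known, so no list is independent evidence. Named were the 10 genes, up to 4 genes per list past the threshold or otherwise the 2 with the smallest p, the 3 genes most like each member (predicted genes passed over), and the relations that were most extreme; other relations past the threshold, Vim with the meningeal genes, S100a8, Prph, Scn10a and Serpina3g levels per library were added after their values were seen. Replicates are separate mice by label. Ensembl identifiers tied the genes to their positions in GENCODE M21 (GRCm38).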

Additional observations from a re-analysis of the deposited data

Results flagged for a closer look

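In 20 groups of 6 libraries (10 genes by genotype), 2 held a library set off from the others by a gap above Dixon's critical value at 95% confidence, and chance gives about 1 in 20 such groups. Serpina3n stood at 45.8 TPM in the library labelled female wt 14, a gap of 0.655 of the wt range. Slc1a3 stood at 202 TPM in female P278KY 4, a gap of 0.753 of the P278KY range. Female P278KY 4 also held the lowest S100b, Serpina3n and Lcn2.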

How the results depend on the processing

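No paired analysis was possible because the groups compared share no mouse number. Over 21 alternatives, none of the 10 genes passed for genotype (lowest adjusted p = 0.836), and their log2 fold changes changed sign in 6 of 210 cases: Lcn2 at 0.11 without both sex-discordant libraries, Vim at -0.034 without male wt 9, Slc1a2 at 0.0031 without female wt 1 and 0.018 without male wt 9, and Slc1a3 at 0.057 without female wt 2 and 0.012 without female P278KY 7. Leaving out each library, they ran from -0.034 to 0.13 for Vim, from -0.099 to 0.018 for Slc1a2 and from -0.099 to 0.057 for Slc1a3. They ran from 0.063 to 0.29 for Gfap, 0.060 to 0.18 for Aqp4, 0.051 to 0.13 for Gja1, 0.070 to 0.22 for Aldh1l1, -0.31 to -0.15 for S100b, -0.27 to -0.0047 for Serpina3n and -0.50 to -0.026 for Lcn2. Over all genes, genotype called 1 gene and 33 by DESeq2, 2 without the sex term, 0 with CPM above 1 in 6 libraries, 0 without both discordant libraries, and 1 to 3 leaving out each library. Labelled sex called 0, then 27 by DESeq2, 10 without both discordant libraries, and 0 to 25 leaving out each library. Within females it was 0, then 296 by DESeq2, 11 without both and 0 to 9 leaving out each; within males 0, then 34 by DESeq2, 4 without both, 3 from only the 6 male libraries and 0 to 4 leaving out each. The interaction called 0, then 279 by DESeq2, 5 without both, 3 with no filter and 0 to 3 leaving out each. The cause was not tested.

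Relations past the threshold that lost it were Vim with Slc1a2 (r = -0.63 in TPM, -0.80 without both discordant libraries, -0.91 to -0.68 leaving out each) and Slc1a3 with Lcn2 (-0.72 without both, -0.88 to -0.66 leaving out each). Leaving out each library gave 0.80 to 0.91 for S100b with Lcn2 and 0.76 to 0.87 for S100b with the neutrophil list, which lost the threshold without female P278KY 4 and, for the list, without male wt 9. Relations that gained it were Slc1a2 with meninges (-0.79 in TPM, -0.85 to -0.62 leaving out each), S100b with oligodendrocyte genes (0.85 without both) and Vim with endothelium (0.83 in TPM). Lcn2 with the neutrophil list (0.92 to 0.97) and Aqp4 with Gja1 (0.84 to 0.94) passed in every case run. Lcn2 had 39 to 383 counts per library.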
